A study of Mus musculus with 9 samples.

Results

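The intercalated disc junction genes are 10 genes whose proteins join heart muscle cells end to end, and they were chosen by name as parts of the disc: *Dsp*, *Jup*, *Pkp2*, *Dsg2* and *Dsc2* of the desmosome, *Cdh2*, *Ctnna3* and *Vcl* of the adherens junction, and *Gja1* and *Tjp1* of the gap junction and its scaffold. All 10 were present in the table of 24571 gene symbols and all 10 were among the 13682 genes that were tested, those averaging 1 TPM or more. TPM gives the share of a library's transcripts that each gene takes, after division by transcript length. The libraries were made from mRNA of E18.5 hearts, from late in gestation, of C57BL/6N mice of 3 *Ctcf* genotypes. Wild-type hearts (n = 3 libraries) carried no mutant allele, heterozygous hearts (n = 3) carried 1 and homozygous hearts (n = 3) carried 2 copies of the R567W substitution, an inherited allele made by CRISPR/Cas9 editing. The CTCF protein binds DNA through zinc fingers and holds chromatin in loops and domains. Nothing in the labels says that the 3 libraries of a genotype came from separate litters, or whether any heart was pooled, so p-values measure only the spread between these libraries.

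The intercalated disc holds 3 kinds of contact. In a desmosome, the cadherins desmoglein 2 and desmocollin 2 reach across the gap between cells, and plakoglobin and plakophilin 2 tie their tails to desmoplakin, which anchors the desmin filaments. In an adherens junction, N-cadherin binds its partner on the next cell, and the catenins and vinculin link it to actin. Connexin 43 forms the gap junction channels that pass current, with zonula occludens 1 at the edge of the channel plaque. In the fetal heart these proteins still lie along the whole cell border and gather at the cell ends only after birth.

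Expression of the junction genes did not pass the threshold in any genotype comparison: 0 of 10 were called in homozygous against wild-type, homozygous against heterozygous or heterozygous against wild-type hearts, or in a test of a steady change per mutant allele (limma, adjusted p under 0.05 over all 13682 genes). At an unadjusted p under 0.05, the counts were 2, 0, 2 and 2 members, beside 25%, 7.15%, 6.87% and 27% of all tested genes. The background of calls was low as well. Over all tested genes, 0.336% were called in homozygous against wild-type hearts, 0.0439% in homozygous against heterozygous, 0.0146% in heterozygous against wild-type and 0.607% in the test per allele. The members with the largest changes were the desmosomal cadherins *Dsg2* and *Dsc2*, with homozygous means 1.62 and 1.65 times the wild-type means. Their 3 homozygous values all lay above the 3 wild-type values, as in 22.3% of all tested genes. Their adjusted p-values were 0.107 and 0.0986. At the other end was *Pkp2*, whose homozygous mean was 0.983 times that of wild type.

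The libraries differed from each other in ways that bear on every value given here. In homozygous against wild-type hearts, 81.7% of all tested genes lay above 0 and the median log2 change was 0.23, so members are also given relative to that median. Median-ratio scaling, which sets the typical gene equal across libraries, brought this median to 0.02. It changed the calls over all genes from 26 higher and 20 lower to 42 higher and 187 lower. All 12 cardiomyocyte markers were measured in every group, and their summed level (in TPM) ranged over 47876 to 52991 for wild-type, 49528 to 54211 for heterozygous and 39431 to 50784 for homozygous libraries. Markers of neighbouring organs stood highest in 3 libraries. Wild-type replicate 1 had a sum of 2622 TPM over 12 airway and lung markers. Heterozygous replicate 1 had 1108 TPM of the same markers and 3812 TPM of 10 hepatocyte markers. The sum of 12 thymocyte markers was 582 TPM in homozygous replicate 3, against at most 2.78 TPM in the other 8 libraries. The lung markers summed to 51.25 TPM in homozygous replicate 1 and 36.5 TPM in wild-type replicate 2, and to 3.95 TPM or less in the other 5 libraries. *Xist* stood at 87.8 TPM or more in wild-type replicate 1, the 3 heterozygous libraries and homozygous replicate 1, and at 0.05 TPM or less in the other 4, so the genotypes were not balanced for sex.

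Ordered by mean level per length over the 9 libraries, the members ran from *Gja1* at 258 TPM through *Cdh2* (129.8 TPM), *Dsp* (125 TPM), *Jup* (89.1 TPM), *Vcl* (76.6 TPM), *Pkp2* (66.9 TPM), *Tjp1* (42.1 TPM), *Dsg2* (17.8 TPM) and *Ctnna3* (17.1 TPM) to *Dsc2* at 15.3 TPM. *Gja1* was the highest member in each of the 9 libraries. Some neighbours in this order did not differ beyond their spread. *Cdh2* exceeded *Dsp* in 7 of 9 libraries, with a mean difference of 4.27 TPM and an SD of 9.99 TPM, and *Dsg2* exceeded *Ctnna3* in only 4 of 9. *Ctnna3* exceeded *Dsc2* in 7 of 9, with a mean difference of 1.73 TPM and an SD of 3.70 TPM. The range of *Pkp2* did not overlap that of *Tjp1*, and *Tjp1* did not overlap *Dsg2*. Between its lowest and highest library a member varied by a factor of 1.45 (*Pkp2*) to 2.30 (*Dsc2*). The summed level of all 10 was lowest in wild-type replicate 1 at 573 TPM, followed by homozygous replicate 3 at 688 TPM and wild-type replicate 2 at 692 TPM, and lay between 815 and 1003 TPM elsewhere. The lowest sums thus came from the libraries highest in lung and in thymocyte markers and from wild-type replicate 2, while heterozygous replicate 1, which also held lung markers, was not among them. The part of those markers in the members' levels was not tested. In whole-heart RNA, fewer muscle cells and less transcript per muscle cell cannot be told apart.

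**Figure D1:**
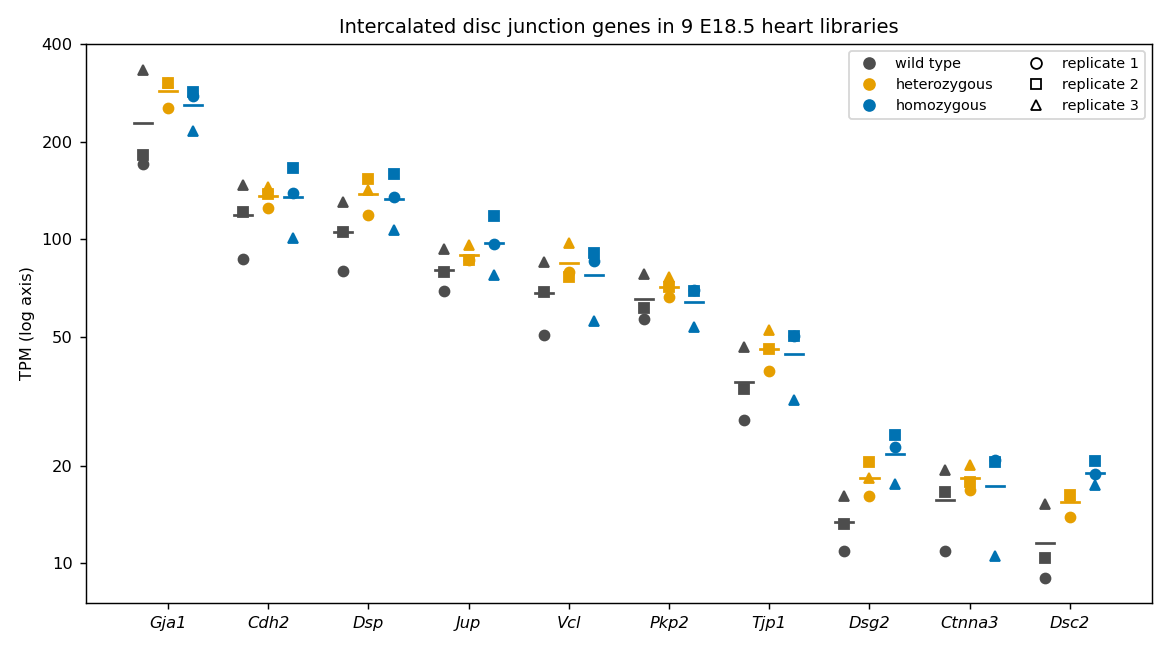
Level of each member in TPM (log axis) in 9 heart libraries, with members ordered by mean; colour gives the genotype, marker shape the replicate number and the short line the group mean of 3 libraries. *Dsg2* and *Dsc2* are the members whose homozygous values (17.5 to 24.9 and 17.4 to 20.75 TPM) all lie above the wild-type values, as do those of 22.3% of all tested genes. The third homozygous library is among the low points of most other members.

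The proteins of the desmosomal plaque came from abundant transcripts. *Dsp* encodes desmoplakin, the linker to desmin. Wild-type hearts had 79.9, 105 and 130.5 TPM, heterozygous hearts 119, 153 and 142 TPM and homozygous hearts 135, 158 and 107 TPM. The groups overlapped, and homozygous replicate 3 lay within the wild-type range. The log2 change was 0.35 (SE 0.19, adjusted p 0.270) in homozygous and 0.41 (SE 0.19, adjusted p 0.672) in heterozygous against wild-type hearts. *Jup* encodes plakoglobin, which serves both desmosomes and adherens junctions. In the same order of genotypes its levels were 69.3, 78.9 and 93.4, then 86.0, 86.3 and 96.0, then 96.65, 118 and 77.4 TPM, again with homozygous replicate 3 the lowest mutant library. The homozygous change against wild type, in log2, was 0.26 (SE 0.16, adjusted p 0.314), which is close to the median of all genes. After median-ratio scaling, the homozygous changes of *Dsp* and *Jup* were 0.11 and 0.02. Leaving out single libraries moved them between 0.17, with wild-type replicate 1 left out, and 0.52, with replicate 3 of that group left out, for *Dsp*, and between 0.11 (without homozygous replicate 2) and 0.41 (without homozygous replicate 3) for *Jup*. *Pkp2* encodes plakophilin 2, the armadillo protein of the cardiac plaque. Wild-type hearts had 56.6, 61.2 and 78.0 TPM, heterozygous hearts 66.4, 71.1 and 76.4 TPM and homozygous hearts 69.5, 69.3 and 53.7 TPM. Of the homozygous values, 69.5 and 69.3 TPM lay inside the wild-type range and 53.7 TPM below it. The log2 change was -0.02 (SE 0.15, 95% interval -0.35 to 0.31, adjusted p 0.941), or -0.25 relative to the median of all genes. After median-ratio scaling, the homozygous values of *Pkp2* (62.5, 60.6 and 54.5 rescaled TPM) all lay below the wild-type ones (67.6, 70.1 and 75.3), with a log2 change of -0.26 (adjusted p 0.145). After that scaling, 12.2% of tested genes were likewise lower without overlap.

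RefSeq (GRCm38.p6) promoter windows were searched for 6 of the 10 members. The 8 windows ran from 250 bases before to 50 after a start site. Windows of *Dsg2*, *Dsc2* and *Cdh2* were left out of the search, and none was at hand for *Pkp2*. Nothing is therefore said here of the promoters of the desmosomal cadherins. The windows of *Dsp* and *Jup* are shown because these genes encode the plaque proteins to which the cadherins attach. CCCTC, the pentamer that gave CTCF its name, is marked in capitals on either strand. *Dsp* held 4 matches and *Jup* 3. The pentamer occurs in 66% of all 32851 promoter windows of this length, so its presence does not set the members apart. The GC box GGGCGG, which occurs in 35.7% of windows and may lie beside or across the pentamer, was matched 4 times in *Dsp* and 2 times in *Jup*. *Vcl* held 4 matches of each word, *Tjp1* held 1 pentamer and 2 GC boxes, and *Gja1* held 2 pentamers and no GC box. The MCAT word CATTCC, found in 14.7% of windows, and the TATA word TATAAA, found in 13.6%, were in neither the *Dsp* nor the *Jup* window. The *Dsp* window is chr13:38151044-38151343 on the plus strand and the *Jup* window is chr11:100397741-100398040 on the minus strand. Both are printed 5′ to 3′ along the gene.
Dsp: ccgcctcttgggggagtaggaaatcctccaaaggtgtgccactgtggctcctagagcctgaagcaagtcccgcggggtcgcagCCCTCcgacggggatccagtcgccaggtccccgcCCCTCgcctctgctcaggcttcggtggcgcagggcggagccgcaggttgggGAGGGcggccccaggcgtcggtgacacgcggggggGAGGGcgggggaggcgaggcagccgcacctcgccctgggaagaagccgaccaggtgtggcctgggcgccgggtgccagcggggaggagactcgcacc
Jup: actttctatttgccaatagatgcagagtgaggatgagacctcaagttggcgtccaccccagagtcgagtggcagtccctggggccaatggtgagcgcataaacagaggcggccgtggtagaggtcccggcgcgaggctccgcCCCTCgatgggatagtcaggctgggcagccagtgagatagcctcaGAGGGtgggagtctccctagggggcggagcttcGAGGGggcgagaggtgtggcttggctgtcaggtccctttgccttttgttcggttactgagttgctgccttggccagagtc
CTCF binding was not measured in these libraries, and a match is only a run of letters.

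The desmosomal cadherins had their highest means in homozygous hearts, though neither passed the threshold. *Dsg2* encodes desmoglein 2, the only desmoglein abundant in heart muscle. Wild-type hearts had 10.9, 13.3 and 16.1 TPM, heterozygous hearts 16.1, 20.5 and 18.4 TPM and homozygous hearts 22.8, 24.9 and 17.5 TPM, with group means of 13.4 ± 2.62, 18.3 ± 2.19 and 21.75 ± 3.80 TPM (SD, n = 3 each). The homozygous and wild-type groups did not overlap, and the heterozygous group touched the wild-type group at 16.1 TPM. The homozygous change against wild type, in log2, was 0.66 (SE 0.18, 95% interval 0.27 to 1.05, adjusted p 0.107). *Dsc2* encodes desmocollin 2, its partner across the gap between cells. Wild-type hearts had 9.04, 10.4 and 15.3 TPM, heterozygous hearts 13.9, 16.3 and 16.2 TPM and homozygous hearts 18.9, 20.75 and 17.4 TPM, with means of 11.6 ± 3.28, 15.4 ± 1.36 and 19.0 ± 1.68 TPM (SD, n = 3 each). The homozygous libraries of *Dsc2* lay above all wild-type and all heterozygous libraries, and 12% of tested genes were likewise higher than in heterozygous hearts without overlap. The log2 change was 0.70 (SE 0.18, 95% interval 0.31 to 1.09, adjusted p 0.0986).

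A separation of this kind is common in these data. Homozygous values lay above all wild-type values in 22.3% of tested genes, against 2 of the 10 members. The size of the change was less common, since those of *Dsg2* and *Dsc2* stood at the 93rd and 94th percentile of all tested genes. Relative to the median of all genes their changes were 0.43 and 0.47. The heterozygous changes against wild type were of similar size to each other, at 0.43 for *Dsg2* and 0.42 for *Dsc2* (unadjusted p 0.0324 and 0.0394, adjusted p 0.672 for both, limma). Homozygous against heterozygous hearts gave 0.23 and 0.28 (adjusted p 0.797 and 0.776). The change per mutant allele was 0.33 (SE 0.08, adjusted p 0.0791) for *Dsg2* and 0.35 (SE 0.08, adjusted p 0.0741) for *Dsc2*.

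**Figure D2:**
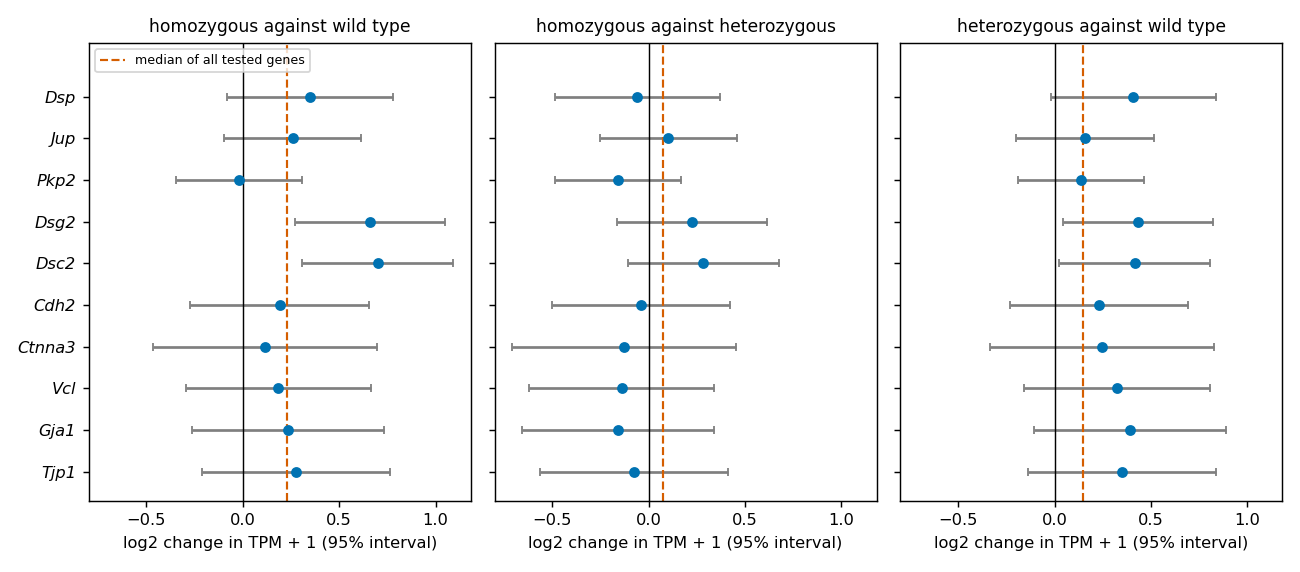
Log2 change of each member on the log2(TPM + 1) scale in the 3 genotype comparisons; points are limma estimates, bars are 95% intervals and the dashed line is the median of all 13682 tested genes. In homozygous against wild-type hearts the intervals of *Dsg2* and *Dsc2* (0.27 to 1.05 and 0.31 to 1.09) exclude 0 before adjustment and the other 8 include it; the 3 panels share libraries.

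The cadherin values were also set apart by sex and by library. Among the libraries with Y-linked transcripts, the wild-type values of *Dsg2* were 13.3 and 16.1 TPM and the homozygous ones 24.9 and 17.5 TPM, and those of *Dsc2* were 10.4 and 15.3 against 20.75 and 17.4 TPM. Among those with *Xist*, wild-type replicate 1 and homozygous replicate 1 had 10.9 and 22.8 TPM of *Dsg2* and 9.04 and 18.9 TPM of *Dsc2*. These values, of 2 against 2 and 1 against 1 libraries, were not tested. With *Xist* as a covariate the log2 changes were 0.66 (adjusted p 0.128) and 0.71 (adjusted p 0.121). Leaving out the 3 libraries highest in markers of other organs gave 0.67 for *Dsg2* (adjusted p 0.179) and 0.61 for *Dsc2* (adjusted p 0.218). Leaving out wild-type replicate 3, the wild-type library with the highest level of each cadherin, gave 0.79 (adjusted p 0.0286) and 0.90 (adjusted p 0.0177), both past the threshold, as were 15.9% of all tested genes. Without homozygous replicate 3, the change per mutant allele of both passed as well (adjusted p 0.0387 and 0.0499), beside 5.53% of all tested genes. After median-ratio scaling the changes were 0.43 (adjusted p 0.131) and 0.48 (adjusted p 0.0914), and after scaling on the cardiomyocyte markers they were 0.69 (adjusted p 0.0268) and 0.73 (adjusted p 0.0350), beside 5.29% of all tested genes. The summed level of 10 general epithelial markers, which belong to cells that also form desmosomes, ranged (in TPM) over 23.6 to 93.9 for wild-type, 33.0 to 62.7 for heterozygous and 20.9 to 148 for homozygous libraries. It was lowest in homozygous replicate 2 and highest in homozygous replicate 3, and its part in the cadherin levels was not tested.

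**Figure D3:**
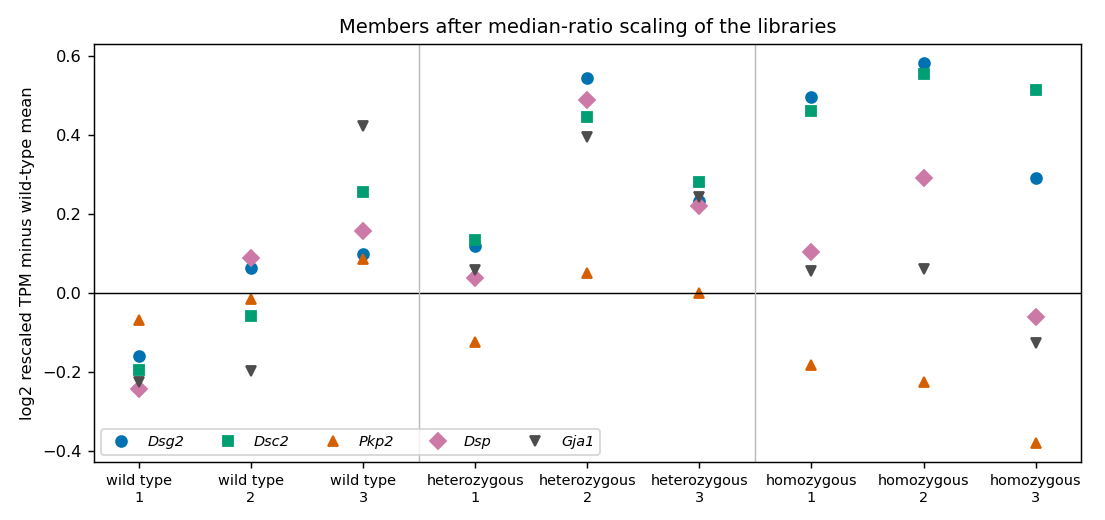
Log2 level of 5 members in each library after median-ratio scaling, minus the wild-type mean of that gene. The homozygous values of *Dsg2* and *Dsc2* lie above all 3 wild-type values and those of *Pkp2* below them, as do 10.3% (above) and 12.2% (below) of all tested genes after this scaling, while *Dsp* and *Gja1* overlap between homozygous and wild-type hearts.

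Ratios of 2 genes of the same library do not depend on how libraries are scaled. The planned ratios numbered 7, and exact two-sided permutation tests of homozygous against wild-type hearts could not go below 0.1 with 3 libraries a group. The ratio of *Pkp2* to *Dsp* was 0.708, 0.583 and 0.598 in wild-type, 0.560, 0.463 and 0.538 in heterozygous and 0.515, 0.438 and 0.503 in homozygous libraries. Both mutant groups lay below wild type without overlap (log2 difference -0.37 in homozygous hearts, exact p 0.1, adjusted p 0.7 over 7 ratios). The ratio to *Dsp* of 10.8% of tested genes did so in homozygous hearts. That share was not computed for heterozygous hearts, so their separation has no background beside it. The other 6 planned ratios overlapped between homozygous and wild-type hearts. The partners *Dsg2* and *Dsc2* kept a ratio of 1.18 ± 0.114 in wild-type, 1.19 ± 0.0644 in heterozygous and 1.14 ± 0.113 in homozygous libraries (SD, n = 3 each; exact p 0.6). *Dsp* to *Jup* was 1.29 ± 0.126, 1.54 ± 0.207 and 1.37 ± 0.0277 (exact p 0.4).

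A further 8 ratios, chosen after the values had been seen, set *Dsg2* and *Dsc2* against the plaque genes and N-cadherin. They are given as a description, with no test. All 8 were higher in homozygous than in wild-type libraries without overlap. *Dsg2* to *Dsp* was 0.136, 0.126 and 0.124 in wild-type, 0.136, 0.134 and 0.130 in heterozygous and 0.169, 0.157 and 0.164 in homozygous libraries. The heterozygous values overlapped those of wild type there and lay below all homozygous ones. Of all tested genes, 3.68% had a ratio to *Dsp* that was higher without overlap. *Dsc2* to *Dsp* was 0.110 ± 0.00967 in wild-type, 0.112 ± 0.00560 in heterozygous and 0.145 ± 0.0164 in homozygous libraries (SD, n = 3 each). Set against *Cdh2*, the other cadherin of the disc, *Dsg2* was 1.42 times and *Dsc2* 1.47 times higher in homozygous than in wild-type libraries, and 7.28% of genes had a ratio to *Cdh2* that was higher without overlap. The corresponding shares were 6.41% for a ratio to *Jup* and 35.9% for a ratio to *Pkp2*, whose own ratio to *Dsp* was lower in homozygous libraries. In 5 of the 8 ratios, those of *Dsg2* to *Jup*, *Pkp2* and *Cdh2* and of *Dsc2* to *Pkp2* and *Cdh2*, heterozygous libraries also lay above wild type without overlap, as did 7.2%, 8.76% and 2.85% of tested genes for ratios to *Jup*, *Pkp2* and *Cdh2*.

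**Figure D4:**
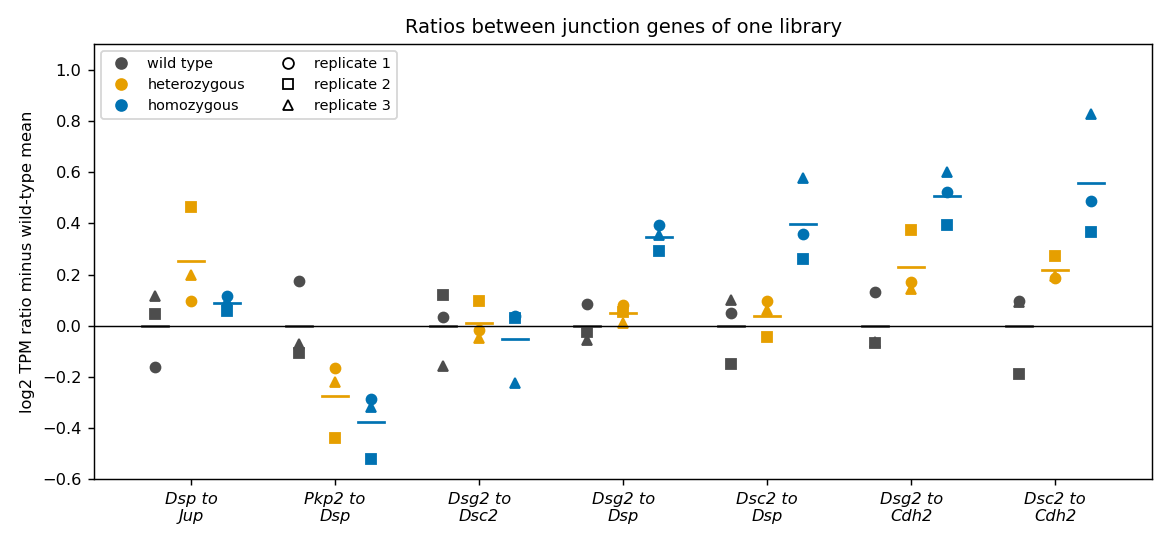
Log2 ratio of member pairs within each library, minus the wild-type mean of that ratio; colour gives the genotype, shape the replicate number and short lines the group means. *Pkp2* to *Dsp* is lower in both mutant groups, *Dsg2* to *Dsc2* overlaps in all groups, and both desmosomal cadherins are higher relative to *Dsp* and *Cdh2* in homozygous libraries. The cadherin ratios to *Dsp* and *Cdh2* were chosen after the values had been seen. In homozygous libraries, 10.8% of tested genes were lower relative to *Dsp* without overlap, and 3.68% and 7.28% were higher relative to *Dsp* and *Cdh2*. No share of lower ratios was computed for heterozygous libraries.

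The adherens junction genes did not separate by genotype. *Cdh2* encodes N-cadherin, the classical cadherin of heart muscle. Wild-type hearts had 86.8, 121 and 147 TPM, heterozygous hearts 125, 138 and 145 TPM and homozygous hearts 139, 165 and 101 TPM. The homozygous change against wild type, in log2, was 0.19 (SE 0.21, 95% interval -0.27 to 0.65, adjusted p 0.558). *Ctnna3* encodes alpha-T-catenin, which binds both N-cadherin complexes and plakophilin 2. Wild-type hearts had 10.9, 16.55 and 19.4 TPM, heterozygous hearts 16.9, 17.8 and 20.1 TPM and homozygous hearts 20.8, 20.6 and 10.55 TPM. Homozygous replicate 3 was the lowest of the 9 libraries for this gene, and the change was 0.12 (SE 0.26, adjusted p 0.789). *Vcl* encodes vinculin, the actin linker that is recruited under tension. It stood at 50.6, 68.8 and 84.8 TPM, then 79.3, 76.2 and 97.2 TPM, then 85.8, 90.65 and 56.1 TPM, with a change of 0.19 (SE 0.22, adjusted p 0.586). The direction of these 3 changes rests on the scaling: after median-ratio scaling they were -0.05, -0.11 and -0.05. *Cdh2* to *Ctnna3* was 7.62 ± 0.329 in wild-type, 7.46 ± 0.285 in heterozygous and 8.08 ± 1.44 in homozygous libraries (SD, n = 3 each; exact p 0.7), and *Vcl* to *Ctnna3* was 4.39 ± 0.249, 4.60 ± 0.283 and 4.62 ± 0.621 (exact p 0.7). *Vcl* overlaps *Ap3m1* on the opposite strand, which stood at 25.02 to 39.0 TPM. Whether strand was used in counting is not stated, so reads from the shared stretch cannot be told apart.

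*Gja1*, which encodes connexin 43, the main channel of ventricular gap junctions, had the widest wild-type spread of the members in TPM. Wild-type hearts had 171, 182 and 332 TPM, heterozygous hearts 254, 304 and 304 TPM and homozygous hearts 276, 284 and 216 TPM. The highest of all 9 values was a wild-type one, in replicate 3. The log2 change was 0.24 (SE 0.22, adjusted p 0.499) in homozygous and 0.39 (SE 0.22, adjusted p 0.672) in heterozygous against wild-type hearts. After median-ratio scaling the homozygous change was -0.0044 (adjusted p 0.991), and without wild-type replicate 3 it was 0.54 in the unscaled values (adjusted p 0.0400, beside 15.9% of all tested genes). It also passed with arrayWeights, which weights libraries by their quality (0.51, adjusted p 0.0290, beside 37.0% of all tested genes). *Tjp1* encodes zonula occludens 1, the scaffold that binds the tail of connexin 43. Wild-type hearts had 27.8, 34.6 and 46.5 TPM, heterozygous hearts 39.3, 45.7 and 52.4 TPM and homozygous hearts 50.1, 50.4 and 31.8 TPM, with a homozygous change of 0.27 (SE 0.22, adjusted p 0.424). This change was 0.04 after median-ratio scaling, 0.10 without wild-type replicate 1 and 0.49 without homozygous replicate 3. *Gja1* to *Tjp1* was 6.18 ± 0.936 in wild-type, 6.30 ± 0.439 in heterozygous and 5.97 ± 0.697 in homozygous libraries (SD, n = 3 each; exact p 0.8). *Gja1* to *Cdh2* was 1.91 ± 0.380, 2.11 ± 0.0830 and 1.95 ± 0.212 (exact p 0.8).

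The 63 tested genes of 5 wider junction lists were not called either: 0 passed in homozygous against wild-type hearts (limma), 8 had an unadjusted p under 0.05 and 53 lay above 0, with a median log2 change of 0.15 beside 0.23 over all genes. The list of gap junction genes beyond *Gja1*, which also held the pannexin gene *Panx1*, had the highest median of the 5, at 0.51. All 6 tested genes were above 0, beside 81.7% of all genes, and 4 had an unadjusted p under 0.05, beside 25%. *Gja5* encodes connexin 40, a channel found in atrial, trabecular and conduction muscle among other cells. Wild-type hearts had 27.15, 28.3 and 44.35 TPM, heterozygous hearts 41.4, 42.2 and 51.4 TPM and homozygous hearts 68.9, 81.8 and 47.4 TPM. Homozygous values lay above all wild-type values, as in 22.3% of all tested genes, with a log2 change of 0.97 (SE 0.23, adjusted p 0.0961). It passed the threshold without wild-type replicate 3 (1.19, adjusted p 0.0212), without homozygous replicate 3 (1.19, adjusted p 0.0415) and after cardiomyocyte scaling (0.997, adjusted p 0.0189), beside 15.9%, 1.81% and 5.29% of all tested genes. The change per mutant allele was 0.48 (adjusted p 0.0647), and after median-ratio scaling it was 0.37 and passed the threshold (adjusted p 0.0413), as did 2% of all tested genes. *Gjc1*, the connexin 45 of the early heart and the pacemaker, had a homozygous change of 0.34 (adjusted p 0.194). *Gja4*, the connexin 37 of endothelium, had 0.36 (adjusted p 0.266), beside a summed level of 8 endothelial markers (in TPM) of 362 to 507 for wild-type, 454 to 552 for heterozygous and 442 to 618 for homozygous libraries. *Gja3* had 0.29 (adjusted p 0.258). The low-level genes *Gjd3* (0.61 to 3.53 TPM) and *Panx1* (2.84 to 8.14 TPM) had 0.86 and 0.66 (adjusted p 0.137 and 0.134) and were named after their values had been seen. After median-ratio scaling, the homozygous changes of *Gjc1*, *Gja4* and *Gja3* were 0.10, 0.14 and 0.06. Those of *Gja5*, *Gjd3* and *Panx1* were then 0.73, 0.71 and 0.47.

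**Figure D5:**
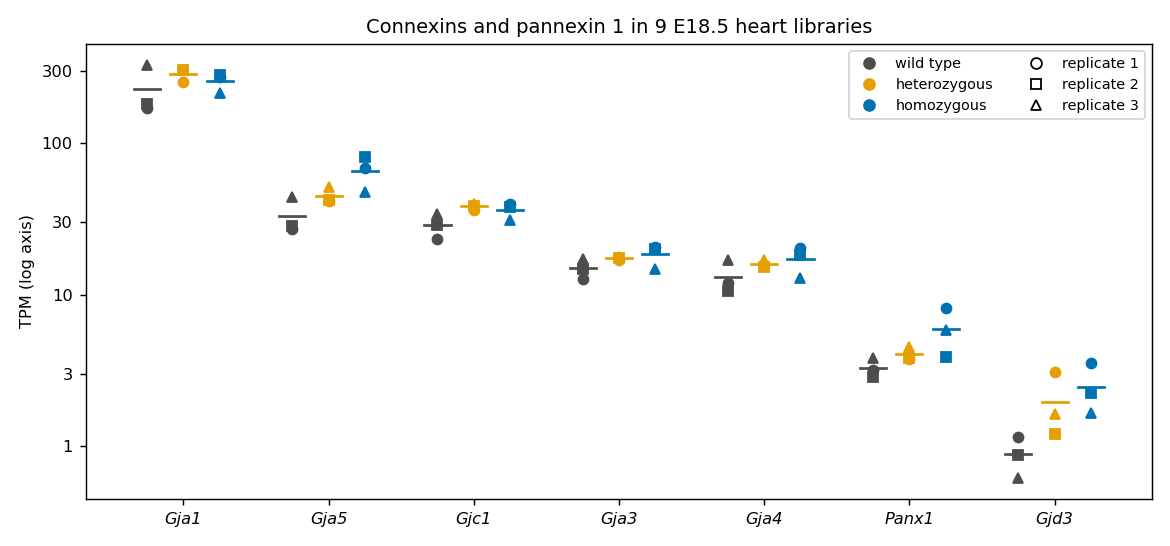
Level of 6 connexins and pannexin 1 in TPM (log axis) in 9 heart libraries; colour gives the genotype, shape the replicate number and short lines the group means. *Gja5* is higher in all 3 homozygous libraries (47.4 to 81.8 TPM) than in the wild-type ones (27.15 to 44.35 TPM), as are 22.3% of all tested genes, while *Gja1* overlaps in all groups.

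The medians of the other 4 lists all lay below the 0.23 of all genes, of which 81.7% were above 0. In the adherens list (20 tested, 16 above 0, median 0.13), the highest changes among genes of at least 5 TPM were in *Cdh11*, a cadherin of mesenchyme (0.54, adjusted p 0.165), and *Arvcf*, a catenin of the p120 family (0.45, adjusted p 0.110). The lowest were in *Actn2*, the alpha-actinin of the Z disc (-0.18, adjusted p 0.429), and *Pdlim5* (-0.15, adjusted p 0.429). After median-ratio scaling, *Actn2* and *Pdlim5* were -0.42 and -0.39 (adjusted p 0.0634 and 0.0597, limma). *Cdh11* and *Arvcf* were then 0.31 and 0.21 (adjusted p 0.375 and 0.274). For *Arvcf*, wild-type hearts had 18.54, 22.7 and 24.1 TPM and homozygous hearts 30.9, 28.7 and 29.9 TPM, which did not overlap. Over all 5 wider lists, 8 of 63 tested genes were higher in homozygous hearts without overlap, beside 22.3% of all tested genes. In the scaffold and channel list (17 tested, 16 above 0, median 0.19), values among genes of at least 5 TPM ran from *Lrrc10* (-0.14) and *Popdc2* (0.01) to *Cldn5* (0.26) and *Cxadr* (0.34). In the costamere and integrin list (16 tested, 13 above 0, median 0.12), they ran from *Lims2* (-0.25) and *Zyx* (-0.12) to *Dmd*, which encodes dystrophin (0.37), and *Lims1* (0.42). The desmosome list beyond the members had 4 tested genes with a median of 0.03. It held the low-level gene *Ppl* (0.29, adjusted p 0.328), which encodes periplakin and whose homozygous values lay above those of wild type without overlap (named after its values had been seen), *Pkp4* (0.14, adjusted p 0.595), the tetraspan protein gene *Perp* (-0.08, adjusted p 0.717) and *Des*, the desmin to which the plaque is anchored (-0.08, adjusted p 0.715). After median-ratio scaling, *Perp* and *Des* were both -0.32 (adjusted p 0.0621 and 0.0911, limma), *Pkp4* was -0.10 and *Ppl* was 0.11.

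*Dsg2* and *Dsc2* lie in the cluster of desmosomal cadherin genes on chromosome 18 (mm10). *Dsc2* spans 20030633 to 20059554 on the minus strand and *Dsg2* spans 20558074 to 20604521 on the plus strand, with 498.5 kb between them, and *Cdh2* lies 3.22 Mb away. The skin-type cadherins of the cluster were near 0: *Dsc1*, *Dsc3*, *Dsg1a*, *Dsg1b* and *Dsg4* stayed at or below 0.06 TPM in 8 libraries and reached 1.05 TPM at most in homozygous replicate 3, the library with thymic markers. Within 1 Mb on either side, a window chosen after the values had been seen, 8 genes were tested and 0 were called. Of these, 6 lay above 0, *Dsg2* and *Dsc2* among them, beside 81.7% of all tested genes, whose median change was 0.23. Apart from the cadherins and the pair below 0, *Ttr* (-0.12) and *Gm10269* (-0.29), the changes between homozygous and wild-type hearts were 0.45 for *Rnf125*, 0.33 for *Trappc8*, 0.25 for *Rnf138* and 0.07 for *B4galt6* (adjusted p 0.180, 0.190, 0.313 and 0.791). Of the 31-base words in *Dsg2* and *Dsc2* transcripts, 0.280% and 0.0932% also occur in transcripts of other genes, and no member exceeded 2.03% (*Jup*). The other members are protein-coding genes on other chromosomes (mm10). *Gja1* spans 56377330 to 56402513 and *Ctnna3* 63430098 to 65003667 on chromosome 10, *Jup* 100368958 to 100397763 on chromosome 11, *Dsp* 38151294 to 38198577 on chromosome 13, *Vcl* 20929398 to 21033676 on chromosome 14, *Pkp2* 16213318 to 16272712 on chromosome 16 and *Tjp1* 65296165 to 65527781 on chromosome 7.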

How the data were processed

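RNA was sequenced in 9 heart libraries, 3 per genotype, with groups taken from the sample titles and genotype labels. The authors trimmed reads with Trim Galore, aligned them to mm10 with STAR and estimated abundance with RSEM, and deposited TPM per gene symbol and library. The annotation release and use of strand are not given in the sources used here. TPM keeps no depth, so counting error is unknown and DESeq2, which the authors ran on counts, was not run. Of 24597 symbols, 26 turned into dates were left out. Genes averaging 1 TPM or more were fitted as log2(TPM + 1) with limma (v3.58.1, trend; R v4.3.3) over all 9 libraries, without covariates, with Benjamini-Hochberg adjustment over 13682 genes (called at an adjusted p under 0.05). This scale understates changes of low genes. Ratios of TPM were compared by exact permutation (scipy v1.17.1). Coordinates came from GENCODE M21 on the same build and promoters from RefSeq. All 10 members were named. Of the wider lists, the 2 highest and 2 lowest changes per list among genes of at least 5 TPM were named. Members, lists and tests were chosen with earlier results of these data known. The procedure was tested on simulated data.

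Alternatives were pseudocounts of 0.1 and 5, no filter or a mean of 5 TPM, median-ratio, quantile, cardiomyocyte-marker and length and GC scaling, rescaling without mitochondrially encoded and haemoglobin genes, no trend, robust eBayes, arrayWeights, only the compared groups, *Xist* as a covariate, a replicate block and leaving out libraries.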

Additional observations from a re-analysis of the deposited data

How the results depend on the processing

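The number of members called stayed 0 under every alternative where heterozygous hearts were compared with either other group. In homozygous against wild-type hearts it rose to 2 with scaling on cardiomyocyte markers (*Dsg2* and *Dsc2*), to 6 with arrayWeights, and ran from 0 to 3 when a library was left out, reaching 3 without wild-type replicate 3 (*Dsg2*, *Dsc2* and *Gja1*). In the test per mutant allele it rose to 2 (*Dsg2* and *Dsc2*) with cardiomyocyte scaling and with arrayWeights, and ran from 0 to 2 when a library was left out, with 2 without wild-type replicate 3 or homozygous replicate 3. Of the wider lists, homozygous against wild-type hearts gave 1 call with cardiomyocyte scaling, 25 with arrayWeights and 0 to 3 without a library (3 without wild-type replicate 3). The test per allele gave 1 with median-ratio scaling, 5 with cardiomyocyte scaling, 14 with arrayWeights and 0 to 4 without a library (4 without homozygous replicate 3). Of all tested genes, 5.29% with cardiomyocyte scaling, 37.0% with arrayWeights and 15.9% without wild-type replicate 3 were called in homozygous against wild-type hearts. Over all genes, the test per allele called 2% with median-ratio scaling, 7.16% with cardiomyocyte scaling, 25.5% with arrayWeights, 14.2% without wild-type replicate 3 and 5.53% without homozygous replicate 3. Over all genes, calls in homozygous against wild-type hearts ran from 11 (only these 2 groups, or without the 3 libraries highest in markers of other organs) to 5068 (arrayWeights), so calls under arrayWeights come with a far larger background.

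Several changes turned sign in homozygous against wild-type hearts. With median-ratio scaling they were -0.050 for *Cdh2*, -0.11 for *Ctnna3*, -0.054 for *Vcl*, -0.0044 for *Gja1*, -0.10 for *Pkp4* and -0.23 for *Popdc2*, and -0.024 for *Pkp2* in heterozygous against wild-type hearts. With quantile normalization they were -0.15 for *Ctnna3* and -0.027 for *Popdc2*, and without mitochondrially encoded and haemoglobin genes -0.042 for *Popdc2*. *Pkp2* became 0.0075 with cardiomyocyte scaling, 0.14 with arrayWeights and 0.0066 without the 3 libraries highest in markers of other organs. *Des* and *Perp* became 0.074 and 0.043 with arrayWeights, and *Lrrc10* became 0.067 without those 3 libraries. When single libraries were left out, the change of *Pkp2* ran from -0.11 to 0.11, of *Cdh2* from -0.014 to 0.39, of *Ctnna3* from -0.11 to 0.42, of *Vcl* from -0.0091 to 0.4, of *Des* from -0.15 to 0.048, of *Perp* from -0.17 to 0.036, of *Pkp4* from -0.0035 to 0.38, of *Lrrc10* from -0.25 to 0.044, of *Popdc2* from -0.077 to 0.14 and of *Zyx* from -0.23 to 0.075. The causes were not tested. *Dsg2* stayed between 0.40 and 0.80 and *Dsc2* between 0.44 and 0.90 over all 25 alternatives. All ratios moved by less than the spread between libraries.

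Replicate numbers were not used as pairs in the main fit. Deviations from the group means of same-numbered libraries correlated at -0.0306 to 0.359, and 2 of 9 pairs exceeded 0.1. Those were wild-type with heterozygous replicate 1 (0.359) and wild-type with heterozygous replicate 3 (0.297). Correlations between libraries of different number were not computed, so these values cannot show whether the numbers pair libraries. With the number as a replicate block, 0 members were called, and *Dsg2* and *Dsc2* had adjusted p-values of 0.132 and 0.128. Depth is unknown, and 3 libraries a group leave intervals of about the width of the cadherin changes.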
